A study of Homo sapiens with 4 samples.

Results

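The Hippo pathway genes AJUBA and AMOTL2 were described across 4 RNA-seq libraries of gastric cancer cells. Both members were chosen by name after a fall in their level under isorhamnetin had been seen in these same libraries, and they are 2 of the 2897 genes in the deposited table. Their change under isorhamnetin is therefore given as a description, with no test. In the Hippo pathway the MST and LATS kinases phosphorylate the co-activators YAP and TAZ and keep them out of the nucleus, and YAP and TAZ that reach the nucleus bind TEAD factors on growth genes. AJUBA is a LIM domain protein of cell junctions that binds LATS kinases and lowers their activity, while AMOTL2 is a motin, a junction and actin-binding protein that holds YAP in the cytoplasm and promotes LATS activity, and whose gene is itself switched on by YAP. In gastric tumours YAP and TAZ activity is commonly raised.

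The study asked how isorhamnetin (ISO), a methylated flavonol of plants related to quercetin, changed the transcripts of gastric cancer cells. AGS-1, whose labels give the cell line as AGS, is a gastric adenocarcinoma line, and HGC-27 is an undifferentiated gastric carcinoma line. The control libraries came from cells labelled untreated, with no vehicle named in the labels, and the ISO libraries from cells given 50 μM ISO for 24 h. The text of the study gives a lower dose for these sequenced cells than the labels do, so the dose is uncertain, and that of the labels is printed here. Each of the 4 conditions (AGS-1 control, AGS-1 ISO, HGC-27 control and HGC-27 ISO) has 1 deposited library, so no value has a replicate and differences between ISO and control have no replicate check. The text of the study speaks of duplicates, and whether a deposited column stands for several cultures is not given in the sources used here.

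The deposited unit is FPKM, fragments scaled to gene length and to the fragment total of the library. Every value multiplied by the gene length and by a factor of its library was a whole number of fragments within a tolerance of 0.01. This factor is proportional to the fragment total of the library. It gave totals of 15235004 fragments in AGS-1 control, 15957590 in AGS-1 ISO, 20199425 in HGC-27 control and 17072456 in HGC-27 ISO. A count of 0 in these libraries allows a share of fragments of up to 1.97e-05%, 1.88e-05%, 1.49e-05% and 1.76e-05% (3 fragments). The listed genes held 78.5% of the fragments of AGS-1 control, 64.4% of AGS-1 ISO, 61.0% of HGC-27 control and 60.0% of HGC-27 ISO. The 13 mitochondrial mRNAs held 6.93% and 11.7% of the fragments of control and ISO in AGS-1, and 7.14% and 9.55% in HGC-27. All 95% intervals of levels and ratios cover counting error only and leave out the variation between cultures.

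The labelled epithelial origin was checked against marker genes. Of 7 epithelial markers, 5 were in the table, and their summed level was 2130.3 FPKM in AGS-1 control and 1360.2 FPKM in AGS-1 ISO, with KRT19 the most abundant in control at 598 FPKM and KRT8 in ISO at 341 FPKM. In HGC-27 the same sum was 4.42 FPKM in control and 3.58 FPKM in ISO, with KRT19 at 0 and EPCAM at 0.387 and 0.506 FPKM, so the defining epithelial markers were at or near 0 in this carcinoma line. The mesenchymal markers found, 2 of 5 (VIM and TWIST1), summed to 0.697 and 0.860 FPKM in AGS-1 and to 639.5 and 404 FPKM in HGC-27, and TWIST1 was at 0 in AGS-1. In HGC-27 TWIST1 was at 334 FPKM in control and 155 FPKM in ISO (log2 ratio of FPKM + 1 of -1.10), and VIM at 306 and 249 FPKM (-0.30). Of the fibroblast markers 1 of 3 was found, COL1A1, at 9.71 and 6.83 FPKM in AGS-1 and 348 and 313 FPKM in HGC-27. Of the leukocyte markers 1 of 3 was found, LYZ, which gastric gland cells also express, at 594 and 314 FPKM in AGS-1 and 0 in HGC-27. The 3 endothelial markers and the 1 red cell marker were not analysed here. In libraries made from whole cultures, fewer cells of a kind and less RNA per cell cannot be told apart, and the part of the markers and of the mitochondrial share in the results on AJUBA and AMOTL2 was not tested.

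AJUBA (ENSG00000129474) lies on the minus strand of chromosome 14, at chr14:22971177-22982551 in the table on GRCh38, with a gene length of 5885 bases. AMOTL2 (ENSG00000114019) lies on the minus strand of chromosome 3, at chr3:134355347-134375479, with a gene length of 6479 bases. RefSeq (GRCh38.p14) gives 2 start sites for each gene, and 4 short motifs were searched on both strands of the windows from 250 bases before to 50 bases after each start. The motifs were CATTCC, the core bound by TEAD factors, TGANTCA, the AP-1 site, TATAAA, the TATA box, and GGGCGG, the GC box. The letters of the TEAD core occurred in 1 of 2 windows of each gene. They are shown with 12 bases on each side because TEAD factors are the DNA-binding partners of YAP, with the match in capitals.
AJUBA, chr14:22976884-22976913, minus strand: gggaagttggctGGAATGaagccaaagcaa
AMOTL2, chr3:134374499-134374528, minus strand: ctgaaactctcaCATTCCtggcatagcagc
In AJUBA the match is on the strand opposite to the gene, 59 to 54 bases before the start site at 22976842. In AMOTL2 it is on the strand of the gene, 69 to 64 bases before the start site at 134374447. Both matches fall in an exon of a GENCODE transcript, and each gene has a further start site upstream. The TEAD letters occurred in 14.0% of all 35116 RefSeq windows and in 10.8% of the 3164 windows that belong to 2253 genes of the table, so a match is a description and not a binding site.

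The start of each gene that lies farther upstream had no TEAD letters in its window. The parts of those windows outside GENCODE exons are shown for comparison, with the GC box of AJUBA, read on the opposite strand, in capitals.
AJUBA, chr14:22982643-22982801, minus strand: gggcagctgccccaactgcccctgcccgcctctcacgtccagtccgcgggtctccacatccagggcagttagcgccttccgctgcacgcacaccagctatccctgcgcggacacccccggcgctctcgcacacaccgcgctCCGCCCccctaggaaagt
AMOTL2, chr3:134375480-134375667, minus strand: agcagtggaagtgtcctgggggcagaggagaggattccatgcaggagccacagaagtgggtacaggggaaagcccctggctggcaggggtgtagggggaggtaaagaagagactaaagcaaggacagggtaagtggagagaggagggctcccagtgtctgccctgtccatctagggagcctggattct
AJUBA and AMOTL2 each had a GC box in 1 of 2 windows, against 45.0% of all windows and 72.1% of the windows of the table's genes. The letters of the AP-1 site and of the TATA box were in none of the 4 windows, against 7.71% and 11.5% of all windows and 4.87% and 6.13% of those of the table's genes.

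AJUBA, the LATS-binding LIM protein, was most abundant in untreated AGS-1 cells. Its level was 100.2 FPKM in AGS-1 control (95% Poisson interval 98.1 to 102, from 8984 fragments) and 37.8 FPKM in AGS-1 ISO (36.6 to 39.1, from 3554 fragments). In HGC-27 it was 25.1 FPKM in control (24.2 to 26.0, from 2978 fragments) and 9.26 FPKM in ISO (8.67 to 9.87, from 930 fragments). The order of the 4 libraries was AGS-1 control, AGS-1 ISO, HGC-27 control and HGC-27 ISO, and no neighbours in this order had overlapping intervals. The ISO library was the lower library in each cell line, yet AGS-1 cells under ISO still held 1.51 times the AJUBA level of untreated HGC-27 cells (95% interval 1.44 to 1.59). Within a library, 85.8% of the listed genes had a lower FPKM than AJUBA in AGS-1 control and 66.6% in AGS-1 ISO. In HGC-27 the share of genes with a lower FPKM than AJUBA was 45.5% in control and 10.3% in ISO, so AJUBA moved from the middle of the listed genes to the lowest levels.

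AMOTL2, the YAP-binding motin, was the less abundant member in every library. Its level was 28.3 FPKM in AGS-1 control (27.2 to 29.4, from 2792 fragments) and 14.8 FPKM in AGS-1 ISO (14.1 to 15.6, from 1531 fragments). In HGC-27 it was 14.4 FPKM in control (13.8 to 15.1, from 1889 fragments) and 5.39 FPKM in ISO (4.96 to 5.84, from 596 fragments). The libraries stood in the same order as for AJUBA, but AGS-1 ISO and HGC-27 control did not differ beyond counting error, with a ratio of 1.03 (0.958 to 1.10). AMOTL2 therefore had about the same level in ISO-treated AGS-1 cells as in untreated HGC-27 cells, while its lowest level, in HGC-27 ISO, was separate from all others. The share of listed genes with a lower FPKM than AMOTL2 was 41.8% in AGS-1 control, 17.6% in AGS-1 ISO, 18.4% in HGC-27 control and 6.94% in HGC-27 ISO.

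**Figure D1:**
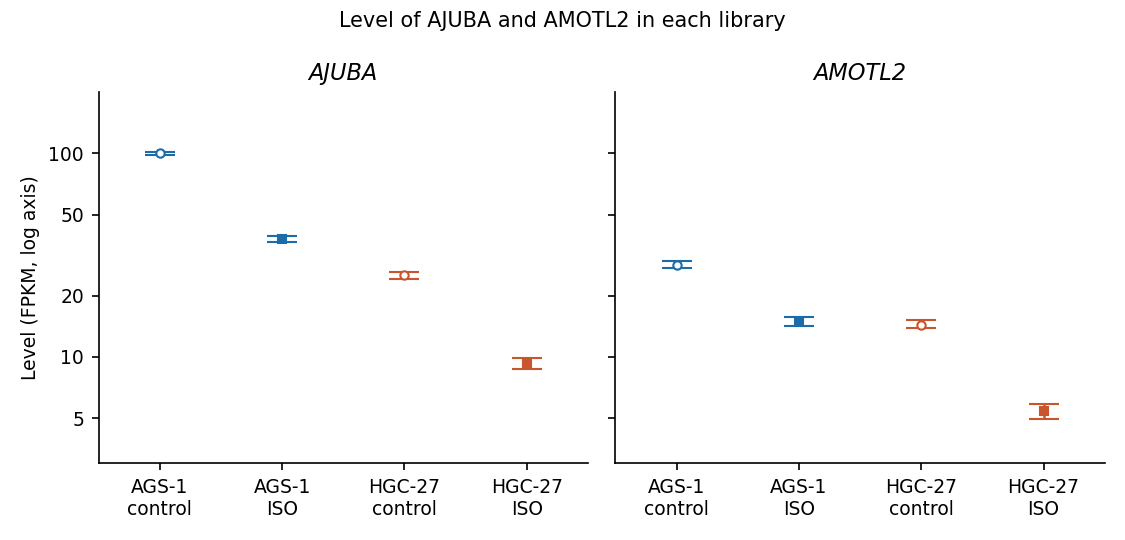
Level of AJUBA and AMOTL2 in FPKM on a log axis, 1 point per library (open circles control, filled squares ISO), with bars for the 95% Poisson interval of the fragment count. AJUBA goes from 100.2 FPKM in AGS-1 control to 9.26 FPKM in HGC-27 ISO, and AMOTL2 from 28.3 to 5.39 FPKM, with AGS-1 ISO and HGC-27 control level for AMOTL2.

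AJUBA under ISO stood at 37.8% of its control level in AGS-1 (95% conditional binomial interval 36.3 to 39.3), a 2.65-fold lower level. In HGC-27 it stood at 36.9% of control (34.3 to 39.8), a 2.71-fold lower level. The fragment log2 ratios of AJUBA were -1.40 and -1.44, with a difference of 0.03 (-0.09 to 0.15, counting error only). On the log2 scale of FPKM + 1, which understates changes of low genes, the AJUBA ratio was -1.38 for AGS-1 cells and -1.34 for HGC-27 cells, past the 2-fold threshold (a log2 ratio of -1) in both.

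AMOTL2 under ISO stood at 52.4% of its control level in AGS-1 (49.2 to 55.7), a 1.91-fold lower level. In HGC-27 it stood at 37.3% of control (34.0 to 41.0), a 2.68-fold lower level. The log2 ratio of FPKM + 1 was -0.89 in AGS-1, which did not reach the 2-fold threshold, and -1.27 in HGC-27, which passed it. The fragment log2 ratios of AMOTL2 were -0.93 and -1.42, with a difference of 0.49 (0.33 to 0.65, counting error only). Without replicate cultures this difference compares 4 libraries and not the cell lines, and it rests on the changes the members were chosen on.

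The balance of the members was read within each library. AJUBA had 3.54 times the FPKM of AMOTL2 in AGS-1 control (3.39 to 3.70) and 2.56 times in AGS-1 ISO (2.41 to 2.72). In HGC-27 the ratio of AJUBA to AMOTL2 was 1.74 in control (1.64 to 1.84) and 1.72 in ISO (1.55 to 1.91). The fragment log2 ratio of AJUBA minus that of AMOTL2 was -0.47 (-0.58 to -0.37) for the AGS-1 libraries and -0.01 (-0.18 to 0.16) for the HGC-27 libraries. These intervals cover counting error only, and the members were chosen on these changes, so nothing is read on the cell lines. The ratio of AJUBA to AMOTL2 within a library does not depend on the scaling of the libraries.

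In the deposited scaling most listed genes had lower values under ISO, and the members were read against that shift. A mean FPKM of 1 or more was reached by 2883 genes, AJUBA and AMOTL2 included, of which 78.8% had a log2 ratio below 0 in AGS-1 and 64.2% in HGC-27. The median ratio was -0.29 for AGS-1 and -0.11 for HGC-27, with median-of-ratios scaling it was -0.03 and -0.05, and with upper-quartile scaling it turned to 0.10 and 0.03. Relative to these medians AJUBA had a log2 ratio of -1.09 for AGS-1 and -1.24 for HGC-27, and AMOTL2 -0.60 and -1.17. A fall of at least 2-fold was seen for 192 genes (6.66%) in AGS-1 and 27 genes (0.937%) in HGC-27, and a rise of that size for 24 (0.832%) and 16 (0.555%). With median-of-ratios scaling the split in AGS-1 was 72 down and 50 up, and with upper-quartile scaling it was 42 down and 60 up in AGS-1 and 15 down and 26 up in HGC-27. AJUBA is in the first of these counts in both cell lines and AMOTL2 in that of HGC-27 alone, and nothing is read from this because the members were selected on this change.

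In the ranking of all 2883 ratios, 48 genes lay below AJUBA in AGS-1 and 7 in HGC-27. For AMOTL2, 283 genes lay below it in AGS-1 and 8 in HGC-27, so the members were next to each other near the bottom of HGC-27 and far apart in AGS-1. A fall of at least 2-fold in both cell lines was seen for 9 genes, AJUBA among them.

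**Figure D2:**
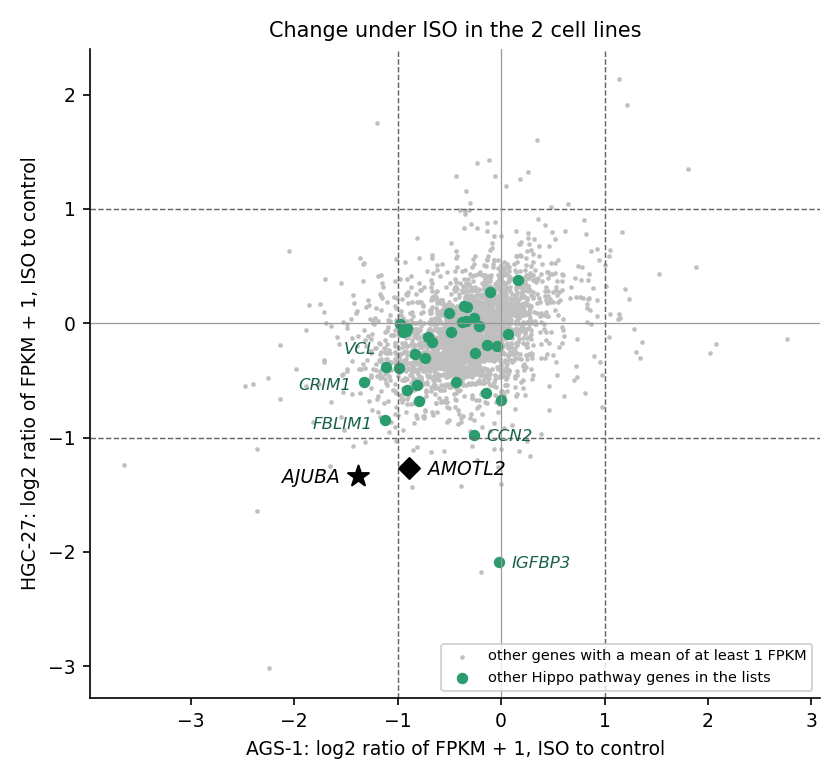
Log2 ratio of FPKM + 1 of ISO to control in AGS-1 (horizontal) and HGC-27 (vertical) for the 2883 genes, with AJUBA as a star, AMOTL2 as a diamond and 34 other Hippo pathway genes in green. Dashed lines mark the 2-fold thresholds, and AJUBA lies past the lower line on both axes while AMOTL2, at -0.89, stops short of it in AGS-1.

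The size of the fall depended on the scaling and the pseudocount, and its direction did not in the 4 alternatives tried. For AJUBA in AGS-1 the log2 ratio was -1.11 with median-of-ratios scaling and -0.96 with upper-quartile scaling, the latter short of the 2-fold threshold. AJUBA in HGC-27 stayed past the threshold, from -1.08 with a pseudocount of 5 to -1.43 with a pseudocount of 0.1. AMOTL2 in HGC-27 was at -0.90 with a pseudocount of 5, short of the threshold, and between -1.41 and -1.15 in the other alternatives. In AGS-1 AMOTL2 was between -0.93 and -0.48, short of the threshold in each.

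**Figure D3:**
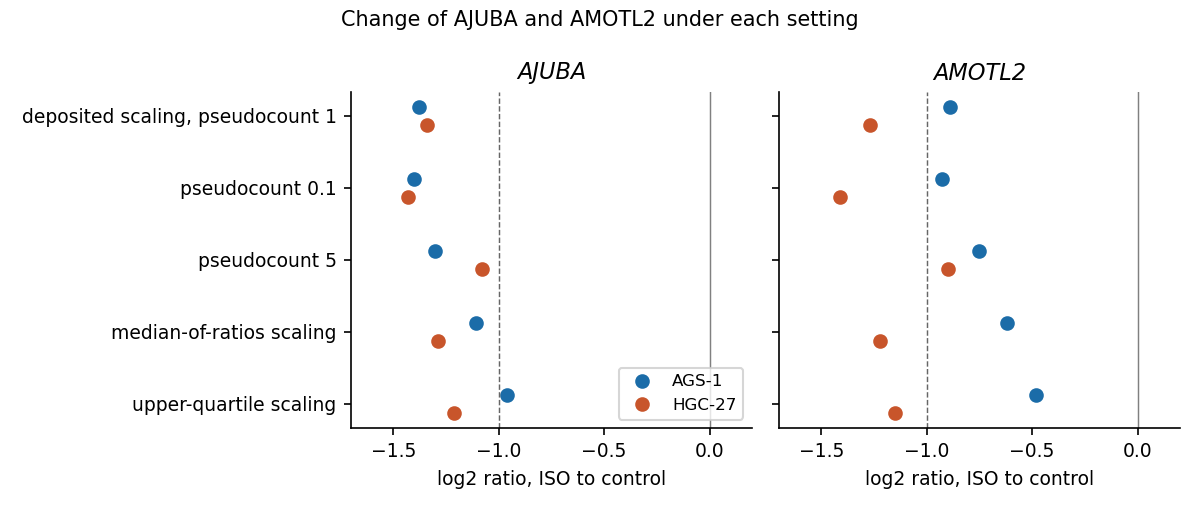
Log2 ratio of ISO to control of AJUBA and AMOTL2 in each cell line (AGS-1 blue, HGC-27 orange) with the deposited scaling, other pseudocounts and other scalings. All points are below 0, and the dashed line marks the 2-fold threshold, which AJUBA in AGS-1 misses with upper-quartile scaling (-0.96) and AMOTL2 in HGC-27 misses with a pseudocount of 5 (-0.90).

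The difference of the members between the cell lines is also given as a description. A limma fit takes its spread from how far the ISO changes of the cell lines differ. Those changes are behind the choice of the members, so p-values of the fit for AJUBA and AMOTL2 decide nothing and are not given. AJUBA was higher in AGS-1 than in HGC-27 by 3.84 to 4.17 times between the controls (95% interval) and by 3.80 to 4.40 times between the ISO libraries. Over all 4 libraries the AJUBA difference in log2 FPKM + 1 was 1.94. The AJUBA levels of the AGS-1 libraries were both above those of the HGC-27 libraries.

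AMOTL2 was higher in AGS-1 by 1.96 times between the controls (1.85 to 2.08) and by 2.75 times between the ISO libraries (2.50 to 3.03). Over all 4 libraries the AMOTL2 difference in log2 FPKM + 1 was 1.12. The limma call on this difference was lost without the treatment term, and no call is read for AJUBA or AMOTL2.

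Of all 2883 genes, limma called 928 (32.2%) higher in AGS-1 and 711 (24.7%) lower, or 789 and 1064 with upper-quartile scaling. The difference of AJUBA was exceeded by 274 genes and that of AMOTL2 by 507. The test has 1 residual degree of freedom and borrows its spread from all genes (prior degrees of freedom 11.4). The libraries of a cell line differ in treatment and are not stated to be separate cultures. The p-values therefore rest on how far the ISO changes of the cell lines differ, and not on a spread between cultures.

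The other genes of the pathway were taken from hand-written lists of 95 genes, of which 34 were in the table and reached a mean of 1 FPKM. In AGS-1 a fall of at least 2-fold was seen for 3 of the 34, against 6.66% of all genes, and in HGC-27 for 1, against 0.937%, while 0 rose by that much in either. These counts are on the log2 scale of FPKM + 1, and with a pseudocount of 0.1 the falls numbered 4 (AGS-1) and 3 (HGC-27). For AGS-1 they numbered 1 with a pseudocount of 5 or median-of-ratios scaling and 0 with upper-quartile scaling, while in HGC-27 each of these gave 1. The median of the 34 log2 ratios was -0.46 for AGS-1 and -0.17 for HGC-27, which is -0.17 and -0.07 relative to the medians of all genes. Leaving out IGFBP3 and FOXF2, which had 3 fragments or fewer in each AGS-1 library, the AGS-1 median was -0.49, a choice made after the data had been seen. Below the median of all genes lay 22 of the 34 in AGS-1 and 19 in HGC-27. On the log2 scale of FPKM + 1 AJUBA was lower in its ratio than each of the 34 in AGS-1, whereas by fragments CRIM1 stood lower, at 0.358 of control (0.327 to 0.392). IGFBP3 alone was lower than AJUBA and AMOTL2 in HGC-27.

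A shared change under ISO over both cell lines was tested with limma for these 34 genes, leaving out AJUBA and AMOTL2. Of all 2883 genes, 24 (0.832%) were called lower and 3 (0.104%) higher, and 578 had an unadjusted p under 0.05. Of the 34 Hippo genes 1 was called, FBLIM1, which was lower, and 14 had an unadjusted p under 0.05. With median-of-ratios scaling limma called 0 of the 34 and 0 of all 2883 genes, with 9 and 511 at an unadjusted p under 0.05. With upper-quartile scaling it also called 0 and 0, with 6 and 505.

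Of 6 LIM protein relatives of AJUBA, 2 were in the table, and LIMD1, WTIP, ZYX and LPP were not analysed here. FBLIM1, a LIM protein of focal adhesions that binds filamin, was at 80.2 FPKM in AGS-1 control, 36.3 in AGS-1 ISO, 6.33 in HGC-27 control and 3.06 in HGC-27 ISO. Its log2 ratio was -1.12 for AGS-1 and -0.85 for HGC-27, with a shared log2 change of -0.99 (SE 0.195) and an adjusted p of 0.0334 by limma with Benjamini-Hochberg adjustment. This call was lost with a pseudocount of 5, either other scaling, no filter, no trend or no cell line term. TRIP6, a zyxin family protein that like AJUBA binds LATS kinases, was at 86.4 FPKM without and 45.4 with ISO in AGS-1 and at 76.7 and 51.0 FPKM in HGC-27, and was not called (log2 change -0.75, SE 0.218, adjusted p 0.120 by limma). Both relatives were below 0 in both cell lines under each scaling, and their medians were -1.02 (AGS-1) and -0.72 (HGC-27). The motins AMOT and AMOTL1, the relatives of AMOTL2, were not analysed here.

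Of 28 upstream kinases, activators and inhibitors, the layer that AJUBA and AMOTL2 act on, 7 were in the table, and none was called by limma or reached 2-fold on the log2 scale of FPKM + 1. SAV1, a scaffold of the MST kinases, came close to that threshold in AGS-1 (-0.99), from 3465 fragments in control and 1785 in ISO, or 0.492 of control by fragments (0.464 to 0.521). LATS1 and LATS2, the kinases that AJUBA binds, were not among them and were not analysed here. The median of the 7 log2 ratios was -0.38 for AGS-1 (-0.09 relative to all genes, and 0.05 with upper-quartile scaling) and 0.01 for HGC-27. FAT1, a giant cadherin that activates the pathway, was the most abundant by its mean over the 4 libraries, at 204 and 103 FPKM in AGS-1 and at 29.1 and 29.0 FPKM in HGC-27. STRN4, a subunit of the phosphatase complex that opposes the MST kinases, was the least changed by the mean size of its log2 ratios in the deposited scaling. It was at 52.8 and 41.5 FPKM in AGS-1 and at 15.1 and 15.4 FPKM in HGC-27.

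Of 19 effectors and their binders, 10 were in the table, again with none past 2-fold or called. The median of their log2 ratios was -0.73 for AGS-1, where all 10 were below 0, against 78.8% of all genes, and 8 were below the median of all genes (below 0 were 8 with median-of-ratios and 7 with upper-quartile scaling), and -0.10 in HGC-27. YAP1, the co-activator that AMOTL2 binds, was at 80.7 and 41.4 FPKM in AGS-1 and at 20.2 and 19.1 FPKM in HGC-27. The YAP1 level under ISO was thus 0.512 of control in AGS-1 (0.493 to 0.532), near that of AMOTL2, and 0.943 in HGC-27 (0.890 to 1.00), where AJUBA and AMOTL2 stood at 36.9% and 37.3%. The highest mean over the 4 libraries was that of YWHAQ, a 14-3-3 protein of the family that retains YAP in the cytoplasm, though it led in no single library, at 100.3 and 90.9 FPKM in AGS-1 and 116 and 102 FPKM in HGC-27. In the deposited scaling the least changed was CSNK1E, a casein kinase, at 23.5 and 19.4 FPKM in AGS-1 and 15.3 and 15.9 FPKM in HGC-27.

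Of 21 target genes of YAP and TAZ, a group to which AMOTL2 also belongs, 8 were in the table. For HGC-27 the median of their log2 ratios was -0.56 (-0.45 relative to all genes). For AGS-1 it was -0.21 over all 8 and -0.35 over the 6 with more than 3 fragments in a library, or 0.08 and -0.06 relative to all genes, so its side of the median of all genes depended on IGFBP3 and FOXF2. CCN2, a matrix-associated growth regulator, was at 129.6 and 108 FPKM in AGS-1 and at 7.92 and 3.51 FPKM in HGC-27. ANKRD1, the least changed target in the deposited scaling, was at 145 and 152 FPKM in AGS-1 and at 0.415 and 0.327 FPKM (15 and 10 fragments) in HGC-27. GADD45A, a stress-response gene with the highest mean over the 4 libraries though it led only in HGC-27 ISO, was at 116 and 104 FPKM in AGS-1 and 51.7 and 33.6 FPKM in HGC-27. CCN2 stood at 0.443 of control in HGC-27 by fragments (0.362 to 0.539) but at -0.98 on the log2 scale of FPKM + 1, short of the threshold. Past 2-fold on that scale were CRIM1 in AGS-1, at 15.5 and 5.57 FPKM (log2 ratio -1.33, with 11.1 and 7.51 FPKM in HGC-27), and IGFBP3 in HGC-27, at 79.8 and 18.0 FPKM (log2 ratio -2.09). IGFBP3 had 1 fragment in AGS-1 control and 0 in AGS-1 ISO, so a ratio there cannot be read.

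Of 12 junction partners of the members, 3 were in the table, with median log2 ratios of -0.83 (AGS-1) and -0.27 (HGC-27). VCL, which links cadherin and integrin adhesions to actin, was past 2-fold in AGS-1, at 48.6 and 22.0 FPKM (log2 ratio -1.11, or -0.84 with median-of-ratios scaling), and was at 34.0 and 25.9 FPKM in HGC-27. CTNNA1, the alpha-catenin that binds AJUBA at adherens junctions, had the highest mean over the 4 libraries and led in all but AGS-1 ISO, at 69.5 and 38.6 FPKM in AGS-1 and 36.7 and 30.2 FPKM in HGC-27. Of 9 further binding partners of AJUBA, 4 were in the table, none past 2-fold, with medians of -0.23 and -0.11. AURKA, the mitotic kinase that AJUBA activates, was at 30.7 and 29.9 FPKM in AGS-1 and 20.2 and 17.5 FPKM in HGC-27. GRB2, an adaptor of receptor signalling, had the highest mean over the 4 libraries, though below AURKA in AGS-1, at 28.2 and 24.3 FPKM in AGS-1 and 29.3 and 28.9 FPKM in HGC-27. In the deposited scaling GRB2 also had the smallest mean size of log2 ratio.

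**Figure D4:**
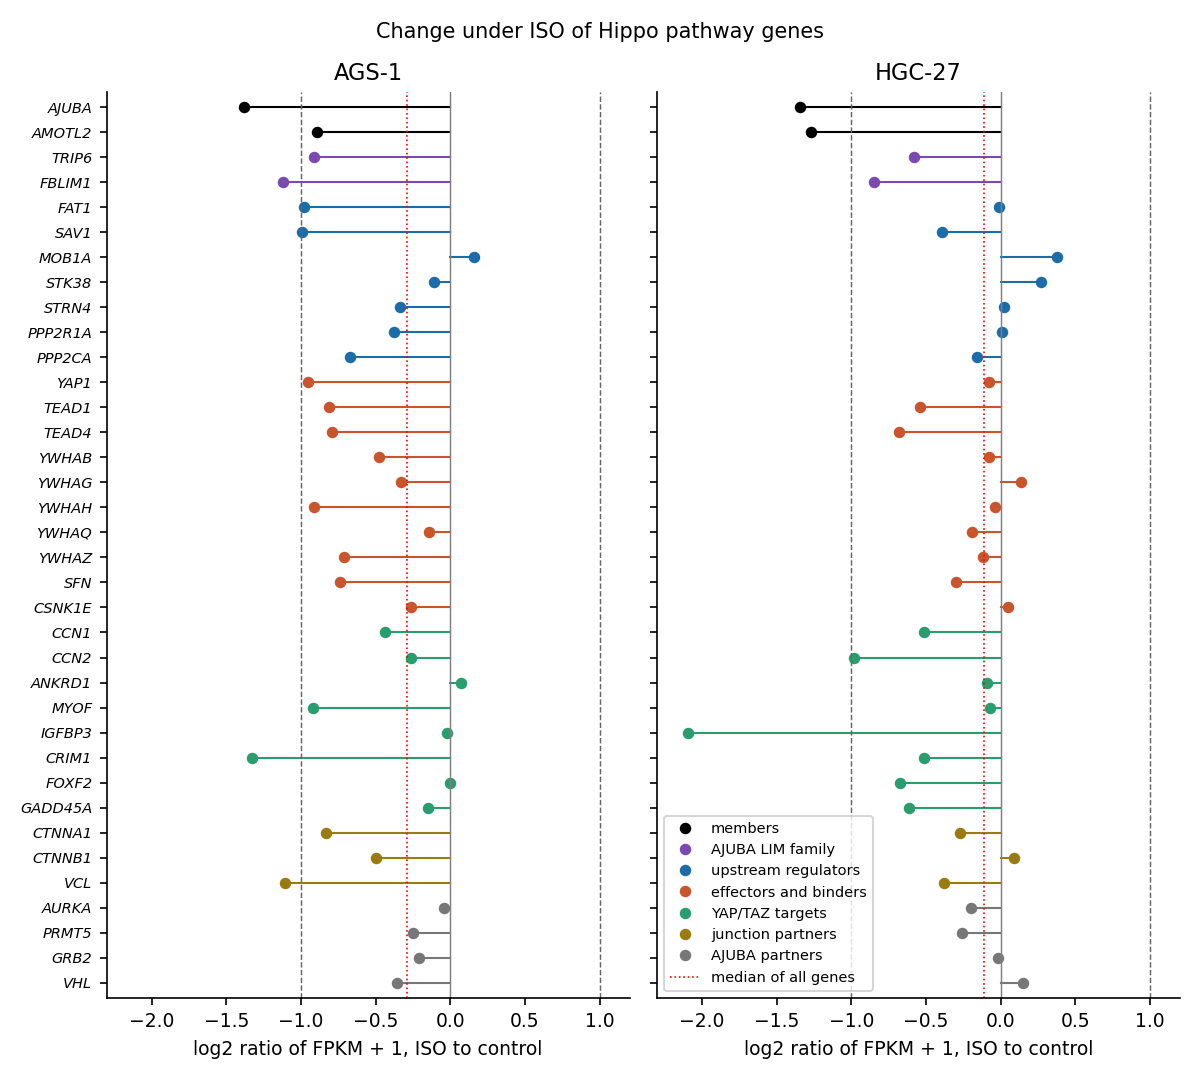
Log2 ratio of FPKM + 1 of ISO to control for AJUBA, AMOTL2 and the 34 other Hippo pathway genes in AGS-1 (left) and HGC-27 (right), coloured by role. The dashed lines mark 2-fold and the dotted line the median of all genes (-0.29 and -0.11), and in HGC-27 AJUBA, AMOTL2 and IGFBP3 are the genes left of the lower threshold.

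AJUBA and AMOTL2 were higher in AGS-1 than in HGC-27, and the other genes of the pathway were compared by limma. Of the 34 other genes, 19 were called higher in AGS-1 by limma (background 32.2%), 3 lower (background 24.7%) and 12 were not called. ANKRD1 among the higher and IGFBP3 and FOXF2 among the lower reached the filter only through the cell line where they are high. Their calls are therefore not read, and the tally is given as a description. Upper-quartile scaling gave 16 higher and 4 lower. Among the effectors YAP1 was higher in AGS-1 by a log2 difference of 1.51 (SE 0.229, adjusted p 9.99e-05 by limma), a size between those of AJUBA and AMOTL2. Among the targets CCN2 was higher in AGS-1 (4.23, SE 0.213). No size is given for ANKRD1, at 0.415 and 0.327 FPKM in HGC-27, because the added 1 FPKM sets it. The same holds for IGFBP3, with 1 and 0 fragments in AGS-1, and for FOXF2, a transcription factor at 0 in both AGS-1 libraries. Of the LIM relatives of AJUBA, FBLIM1 was higher in AGS-1 by 3.33 (SE 0.195, adjusted p 9.25e-09 by limma), while TRIP6 had a log2 difference of 0.00 (SE 0.218) and was not called.

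The genes whose pattern over the 4 libraries was most like that of each member were found by Euclidean distance of centred log2 FPKM + 1. For AJUBA they were AXIN2 (distance 0.396), a scaffold of the beta-catenin destruction complex, then TMSB4XP8 (0.421), MYL9 (0.463), a myosin light chain, PROCR (0.471), the protein C receptor, and RRAS (0.523), a small GTPase. AXIN2 was at 98.8 and 48.4 FPKM in AGS-1 and at 29.1 and 13.7 FPKM in HGC-27, near AJUBA in AGS-1 control and above it in the other libraries. TMSB4XP8 is a thymosin pseudogene, and its fragments may not be separable from those of its near-identical parent gene.

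For AMOTL2 the nearest were LIMA1 (0.401), an actin-binding LIM protein, CHAC1 (0.423), an enzyme of glutathione breakdown, H1-10 (0.433), a linker histone, HOXB9 (0.435), a homeobox factor, and CALD1 (0.471), an actin-binding regulator of myosin. LIMA1 was at 37.2 and 20.7 FPKM in AGS-1 and at 19.5 and 10.7 FPKM in HGC-27. By this distance the members were less like each other (0.896) than like these genes. AMOTL2 was the 43rd nearest gene to AJUBA, and AJUBA the 223rd nearest to AMOTL2. By Pearson correlation this order held only in part. The members had an r of 0.979, against 0.978 (RRAS) to 0.998 (MYL9) for the genes near AJUBA. For those near AMOTL2 r ran from 0.962 (H1-10) to 0.991 (LIMA1). With Pearson correlation as the measure, 1 of the 5 genes was shared for AJUBA and 0 of 5 for AMOTL2, so the names depend on the measure.

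Genes beside the members on the chromosome were also read, in a window of 1000000 bases to each side chosen after the data had been seen. AJUBA had 10 listed neighbours, none past 2-fold. Their log2 ratios ran from -0.85 to 0.50 for AGS-1, with 7 of 10 below 0, against 78.8% of all genes. For HGC-27 they ran from -0.26 to 0.57, with 2 of 10 below 0, against 64.2% of all genes. Most neighbours, 8 of 10, were thus above 0 in HGC-27, where AJUBA fell. AMOTL2 had 1 listed neighbour, CDV3, with log2 ratios of -0.48 and -0.20. In GENCODE 29 the gene AL132780.3 (chr14:22946270-22982258) overlaps AJUBA on the same strand, and the pseudogene RPL39P5 (chr3:134351852-134356561) and the microRNA gene MIR6827 overlap AMOTL2 on its strand. None of these overlapping genes was analysed here, and fragments from the shared stretches cannot be told apart from those of AJUBA and AMOTL2.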

How the data were processed

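RNA-seq of AGS-1 and HGC-27 cells, untreated or given ISO, was measured in 4 libraries, 1 per condition, grouped by the labelled treatment and cell line. The authors deposited 1 table with FPKM for 2897 genes, and how these genes were selected is not given in the sources used here. The unit follows the study's own display and the recovered whole fragments. Gene length in bases is given as deposited. The submitters' processing notes name CASAVA 1.8, HISAT2, GRCh38 and hg38, with no role or order, and the counting tool and annotation are not given in the sources used here.

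Whole fragments were recovered from FPKM, gene length and the factor of each library. They gave the depth and the 95% counting intervals (exact Poisson for a level, exact conditional binomial for a ratio, a normal approximation on the log scale for a difference of ratios). For log2 ratios 1 FPKM was added to each value, and a gene counted as changed at 2-fold. The 2883 genes that reached a mean of 1 FPKM were fitted with limma 3.58.1 in R 4.3.3 (cell line and treatment, eBayes with a trend) and called at a Benjamini-Hochberg adjusted p under 0.05. The script was tested on simulated data. Further tools were Python 3.11.15, scipy 1.17.1, pandas 2.3.3, matplotlib 3.10.9 and numpy 2.4.6, with promoter windows from RefSeq (GRCh38.p14) and exons from GENCODE 29. Alternatives were pseudocounts of 0.1 and 5, median-of-ratios and upper-quartile scaling, no filter or a filter at a mean of 10 FPKM, limma without a trend or without the second term, and Pearson correlation for likeness.

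The members and the gene lists were chosen with earlier results of these data known. Named genes were AJUBA, AMOTL2, the 5 genes nearest to each, and from each list those past 2-fold, the most abundant by mean FPKM over the libraries and the least changed by the mean size of the log2 ratios. YAP1, CCN2, SAV1, AURKA, FOXF2, STK38, YWHAG, VHL and the chromosome neighbours were named beyond this rule, after their values were seen. Protein sequences were not used here.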

Additional observations from a re-analysis of the deposited data

Results flagged for a closer look

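STK38, YWHAG, CTNNB1 and VHL, all in the Hippo pathway lists, had log2 ratios of ISO to control of opposite sign in the cell lines, each beyond counting error, and the difference was not tested. All 4 of these, from 34 Hippo genes, were lower under ISO in AGS-1 and higher in HGC-27, as were 332 of all 2883 genes (11.5%) by the same rule, with 70 (2.43%) the other way round, so the pattern is not particular to these lists. STK38, a kinase related to LATS, was at -0.11 in AGS-1 and 0.27 in HGC-27. YWHAG, a 14-3-3 protein, was at -0.33 and 0.14. CTNNB1, which encodes beta-catenin, was at -0.50 and 0.09. VHL, a ubiquitin ligase subunit that AJUBA family proteins bind, was at -0.36 and 0.15. With median-of-ratios scaling STK38 was at 0.16 in AGS-1 and 0.33 in HGC-27, so its sign in AGS-1 turned, while YWHAG (-0.06 and 0.20), CTNNB1 (-0.23 and 0.15) and VHL (-0.10 and 0.21) stayed of opposite sign. With upper-quartile scaling YWHAG (0.09 in AGS-1) and VHL (0.04) turned as well. AJUBA and AMOTL2 were lower under ISO in both cell lines.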

How the results depend on the processing

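Of 140 values recomputed under another setting, 92 kept their direction and stayed near the reported value or on the same side of the threshold. Another 47 moved, counts of calls that went to 0 among them. The remaining 1, the limma call on the cell line difference of AMOTL2, was lost without the treatment term and is not read here. No ratio or cell line difference of AJUBA or AMOTL2 changed sign, while with upper-quartile scaling the split of falls and rises in AGS-1 and HGC-27 and that of the calls between the cell lines turned. The cause of these changes was not tested.

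With a pseudocount of 5 AJUBA had log2 ratios of -1.30 (AGS-1) and -1.08 (HGC-27), and AMOTL2 -0.75 and -0.90. Median-of-ratios scaling gave -1.11 for AJUBA and -0.62 for AMOTL2 in AGS-1. Upper-quartile scaling gave -0.96 for AJUBA and -0.48 for AMOTL2 in AGS-1, and -1.21 for AJUBA in HGC-27.

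In AGS-1 the genes that fell at least 2-fold numbered 72 with median-of-ratios and 42 with upper-quartile scaling, against 192, and those that rose 50 and 60, against 24. In HGC-27 those that fell numbered 45 with a pseudocount of 0.1, 16 with 5 and 15 with upper-quartile scaling, against 27, and those that rose 27 with a pseudocount of 0.1 and 26 with upper-quartile scaling, against 16. Of the other Hippo genes 1 fell in AGS-1 with a pseudocount of 5 or median-of-ratios scaling and 0 with upper-quartile scaling, against 3, and 3 fell in HGC-27 with a pseudocount of 0.1, against 1.

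Shared changes under ISO called lower by limma numbered 99 with a pseudocount of 0.1, 9 with 5, 4 without a filter, 93 with a filter at a mean of 10 FPKM and 4 without a trend, against 24. Called higher were 8 with a pseudocount of 0.1 and 11 with the filter at 10 FPKM, against 3. Limma called 0 in each direction with median-of-ratios scaling (511 genes at an unadjusted p under 0.05), with upper-quartile scaling (505) and without the cell line term (15). Of the other Hippo genes, limma called 3 with a pseudocount of 0.1 or the filter at 10 FPKM, and 0 with a pseudocount of 5, either scaling, no filter, no trend or no cell line term, where 14, 9, 6, 12, 12 and 0 had an unadjusted p under 0.05.

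The difference of AMOTL2 between the cell lines, 1.12, was 0.85 with a pseudocount of 5 and 0.90 with upper-quartile scaling. That of AJUBA, 1.94, was 1.70 and 1.72 with these settings. Over genes with more than 3 fragments in a library, a choice made after seeing the data, the AGS-1 median log2 ratio was -0.35 for the YAP and TAZ targets, against -0.21, and -0.49 for all other Hippo genes, against -0.46. With Pearson correlation 1 of the 5 genes nearest to AJUBA and 0 of those nearest to AMOTL2 were shared.

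No paired analysis was possible because each condition has 1 library and the groups share fewer than 2 replicate numbers, apart from the cell line term of the limma fit, which compares ISO with control within each cell line. Depth limits AMOTL2 in HGC-27 ISO most, with 596 fragments. The variation between cultures is not measured, so intervals understate the error. The listed genes hold 60.0% to 78.5% of fragments, and the scaling alternatives rest on these genes alone.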
